A study of Mus musculus with 28 samples.

Results

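Meiotic cohesins and the proteins of the chromosome axis were followed in mouse testis through 9 genes: Rec8, Rad21l, Smc1b, Smc3, Stag3, Hormad1, Hormad2, Trip13 and Sgol2a. They were taken by gene name from the 34839 genes of the mRNA table, whatever their values, and all 9 were found. Sgol2a is entered there as Sgo2a, the symbol used from here on. All 9 had values above 0 in every library and passed the filter for testing.

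Cohesin is a ring of a pair of SMC proteins closed by a kleisin subunit, with an SA subunit bound to the kleisin, and it holds sister chromatids together. In meiosis several subunits are replaced: SMC1β stands in for SMC1α, REC8 and RAD21L for the mitotic kleisin RAD21, and STAG3 for the mitotic SA proteins. These cohesins organise the chromosome axis, to which HORMAD1 and HORMAD2 bind until the ATPase TRIP13 removes them from synapsed chromosomes, and the shugoshin SGO2 shields centromeric REC8 from separase during the first meiotic division.

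The series concerns the domains of PRDM9, a histone methyltransferase that decides where meiotic recombination starts. Whole-testis mRNA of C57BL/6 mice was sequenced from Prdm9 knockouts (KO, 2 libraries), Hop2 knockouts (2 libraries) and an adult wild-type testis (1 library). Hop2, now Psmc3ip, encodes a cofactor of the strand-exchange protein DMC1. Meiotic double-strand breaks were mapped in 1 testis library of Prdm9 (K/K) mice, whose PRDM9 lacks its KRAB domain. The labels give no age for the KO mice and do not tell separate animals from repeat libraries of a genotype. The p-values below therefore measure a spread between libraries that may be technical. Levels are given as the TPM that the authors deposited, a per-length measure whose columns were rescaled so that they do not sum to 1000000. Read depth is unknown.

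The libraries differed widely outside the 9 genes. The 10 spermatid markers summed to 13.0 to 46.0 TPM in the KO libraries, against 119772 TPM in wild type. The 11 genes listed as markers of pachytene and later spermatocytes summed to 222.3 to 258.8 TPM, against 16182 TPM. Prm2 and Catsper1 of the first list and H1fnt of the second were at 0 in some KO library. The summed levels of markers of the other cells of the testis were higher in the KO libraries: 2746 to 3609 TPM against 652.6 TPM in wild type for Sertoli cells, 26210 to 73494 TPM against 5912 TPM for Leydig cells, 465.3 to 812.2 TPM against 89.1 TPM for macrophages, and 639.0 to 772.4 TPM against 192.0 TPM for spermatogonia. The Leydig sum was mostly Insl3 (21025 to 68224 TPM against 5124 TPM). Of the spermatogonia list, Gfra1 (1.80 to 3.40 TPM against 4.24 TPM) and Nanos3 (3.22 to 4.76 TPM against 4.95 TPM) were below wild type in every KO library. The rest of the spermatogonia and Leydig lists was above wild type in every KO library. Psmc3ip was at 3.51 and 5.06 TPM in the Hop2 KO libraries, below the other libraries (22.8 to 197.3 TPM), and Prdm9 was at 4.73 and 5.93 TPM in Prdm9 KO, against 10.7 and 15.03 TPM for the Hop2 KO libraries and 6.20 TPM for wild type.

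With the columns as deposited, the 9 genes together held 267.7 to 289.2 TPM in the 4 KO libraries, against 786.5 TPM in wild type. The whole wild-type column was also larger, at 1622660 against 825459 to 953598 in the KO libraries. The difference in the sum of the 9 genes was carried by a few of them. Stag3, Rec8, Smc1b and Sgo2a were lower in both knockouts than in wild type, Rad21l and Trip13 were higher, and Smc3, Hormad1 and Hormad2 did not pass the test. So 2 of the 9 genes rose and 4 fell in Prdm9 KO, where 34.6% of all 16261 genes tested rose and 39.4% fell, 74.1% in all (limma, Benjamini-Hochberg adjusted p under 0.05). The same 2 rose and the same 4 fell in Hop2 KO, where 35.0% of genes rose and 39.5% fell, 74.5% in all. Against backgrounds that high the counts alone show nothing particular to the 9 genes. Their median change was -0.33 in Prdm9 KO and -0.26 in Hop2 KO, against -0.08 and -0.06 over all genes tested. Both comparisons use the same wild-type library, which has no replicate and is assumed by the fit to vary like the KO libraries. In whole testis, fewer cells of a type and less RNA per cell cannot be told apart, and the part of the marker shifts above in the values that follow was not tested.

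**Figure D1:**
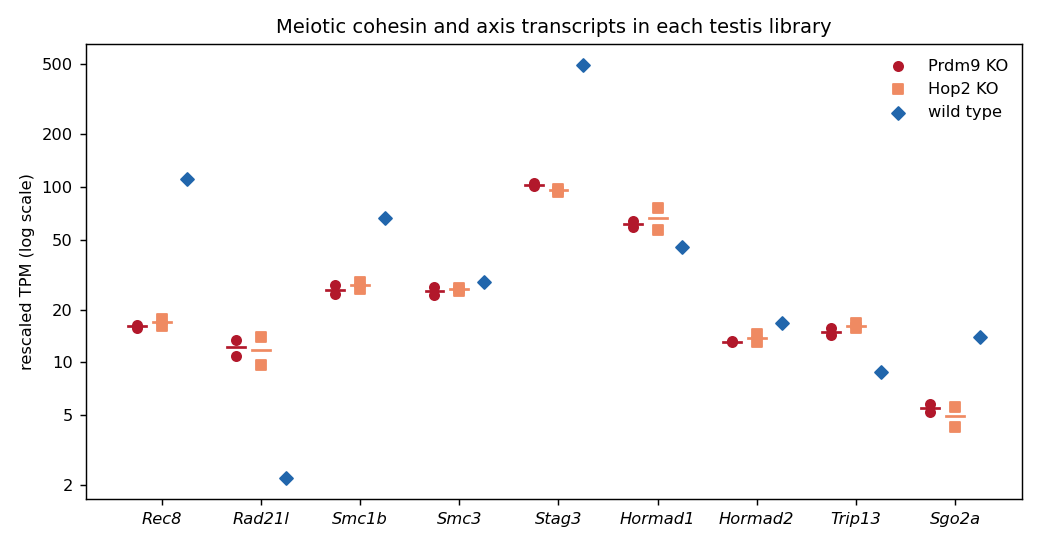
Level of each of the 9 genes in TPM (rescaled by the authors; log axis) in the Prdm9 KO, Hop2 KO and wild-type testis libraries, with 1 point per library and a bar at each KO mean. The KO points lie close together for each gene, while wild type lies above all 4 KO libraries for 6 genes and below all 4 for Rad21l, Hormad1 and Trip13. These include Smc3, Hormad1 and Hormad2, which did not pass the test. The share of all genes with wild type outside the KO range was not computed, so the counts show nothing particular to the 9 genes.

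The kleisins moved in opposite directions. Rec8 (ENSMUSG00000002324, chr14:55618002-55625395, GRCm38.p6), the kleisin that persists on chromosomes until the second division, had 16.4 and 15.8 TPM in Prdm9 KO, 17.7 and 16.1 TPM in Hop2 KO and 110.8 TPM in wild type. All 4 KO libraries lay far below wild type and overlapped each other. Wild type held 6.89 times the Prdm9 KO mean (16.1 ± 0.469 TPM, SD, n = 2) and 6.55 times the Hop2 KO mean (16.9 ± 1.13 TPM, SD, n = 2). On the log2(TPM + 1) scale, which understates changes of low genes and is used for all tested changes here, Rec8 changed by -2.71 (SE 0.12) in Prdm9 KO (limma adjusted p = 0.000365) and by -2.64 in Hop2 KO (limma adjusted p = 0.000383).

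Rad21l (ENSMUSG00000074704, chr2:151644366-151670622), a kleisin that appears early in prophase and is lost from the axis during pachytene, had 13.5 and 10.9 TPM in Prdm9 KO, 13.9 and 9.72 TPM in Hop2 KO and 2.20 TPM in wild type. Every KO library was above wild type, and the KO groups overlapped. The Prdm9 KO mean of 12.2 ± 1.81 TPM was 5.55 times the wild-type level, and the Hop2 KO mean of 11.8 ± 2.98 TPM was 5.39 times it (SD, n = 2 each). Rad21l rose by 2.04 (SE 0.29) on the log2 scale in Prdm9 KO (limma adjusted p = 0.00637) and by 1.99 in Hop2 KO (limma adjusted p = 0.0067). It was also the gene whose replicates were farthest apart relative to their mean, with a coefficient of variation of 14.8% in Prdm9 KO and 25.2% in Hop2 KO.

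The ratio of Rec8 to Rad21l makes the contrast independent of how the columns were scaled. It was 1.22 and 1.45 in the Prdm9 KO libraries, 1.27 and 1.66 in the Hop2 KO libraries, against 50.5 in wild type. Both kleisins thus had similar levels in the knockouts, and Rad21l was a small part of the pair in wild type.

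Of the SMC subunits, the meiosis-specific one fell and the one shared with mitotic cohesin did not pass the test. Smc1b (ENSMUSG00000022432, chr15:85064689-85131957), which encodes SMC1β, had 27.4 and 24.5 TPM in Prdm9 KO, 26.3 and 28.6 TPM in Hop2 KO and 66.5 TPM in wild type. The KO groups overlapped and both lay below wild type, which held 2.56 times the Prdm9 KO mean (25.95 ± 2.09 TPM) and 2.42 times the Hop2 KO mean (27.5 ± 1.66 TPM, SD, n = 2 each). The change was -1.33 (SE 0.13) on the log2 scale in Prdm9 KO (limma adjusted p = 0.00251) and -1.25 in Hop2 KO (limma adjusted p = 0.00287). Smc3 (ENSMUSG00000024974, chr19:53600396-53645831), present in every cohesin ring of mitotic and meiotic cells, had 24.3 and 27.0 TPM in Prdm9 KO, 25.6 and 26.6 TPM in Hop2 KO and 28.6 TPM in wild type. The 5 libraries nearly coincided: the log2 change was -0.15 in Prdm9 KO (SE 0.12, limma adjusted p = 0.317) and -0.13 in Hop2 KO (limma adjusted p = 0.403). The sign for Smc3 depends on the scaling of the columns, as given further on.

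Stag3 (ENSMUSG00000036928, chr5:138272514-138312397), the SA subunit of meiotic cohesin, was the most abundant of the 9 genes in every library. It had 101.2 and 104.3 TPM in Prdm9 KO, 92.9 and 97.2 TPM in Hop2 KO and 493.6 TPM in wild type. Wild type stood apart from all 4 KO libraries, with 4.81 times the Prdm9 KO mean (102.7 ± 2.18 TPM) and 5.19 times the Hop2 KO mean (95.05 ± 3.09 TPM, SD, n = 2 each). Stag3 changed by -2.25 (SE 0.09) on the log2 scale in Prdm9 KO (limma adjusted p = 0.000304) and by -2.36 in Hop2 KO (limma adjusted p = 0.000267). Its annotated span overlaps those of Gal3st4 and Gpc2, and that of Smc1b overlaps Fam118a and the pseudogene Gm10923. The sources used here do not give whether the counting used the strand.

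The HORMA-domain proteins did not pass the test in either knockout. Hormad1 (ENSMUSG00000028109, chr3:95559677-95587863), which marks unsynapsed axes and promotes break formation, had 59.3 and 63.5 TPM in Prdm9 KO, 75.9 and 56.4 TPM in Hop2 KO and 45.2 TPM in wild type. All 4 KO libraries were above wild type, but the Hop2 KO pair was spread widely (66.2 ± 13.8 TPM, SD, n = 2), with Prdm9 KO inside it (61.4 ± 2.99 TPM, SD, n = 2). The log2 change was 0.43 in Prdm9 KO (SE 0.22, limma adjusted p = 0.147) and 0.52 in Hop2 KO (limma adjusted p = 0.0982). With each column brought to 1000000 it passed, at 1.34 and 1.31 (limma adjusted p = 0.0116 and 0.0125). Hormad2 (ENSMUSG00000020419, chr11:4345801-4441198), its partner on unsynapsed axes, had 13.3 and 13.0 TPM in Prdm9 KO, 14.6 and 13.0 TPM in Hop2 KO and 16.7 TPM in wild type. Its KO libraries lay just below wild type, with changes of -0.33 (SE 0.14, limma adjusted p = 0.113) in Prdm9 KO and -0.26 in Hop2 KO (limma adjusted p = 0.177).

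Trip13 (ENSMUSG00000021569, chr13:73912450-73937795), the ATPase that removes the HORMADs, had 15.6 and 14.4 TPM in Prdm9 KO, 16.7 and 15.6 TPM in Hop2 KO and 8.84 TPM in wild type. Each KO library was above wild type, and the KO means were 1.70 times its level in Prdm9 KO (14.99 ± 0.880 TPM) and 1.82 times in Hop2 KO (16.1 ± 0.743 TPM, SD, n = 2 each). Trip13 rose by 0.70 (SE 0.14) on the log2 scale in Prdm9 KO (limma adjusted p = 0.0164) and by 0.80 in Hop2 KO (limma adjusted p = 0.0113). The Prdm9 KO call was lost when either of its libraries was left out: the change was then 0.64 without replicate 1 (limma adjusted p = 0.0898) and 0.76 without replicate 2 (limma adjusted p = 0.0652).

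Sgo2a (ENSMUSG00000026039, chr1:57985340-58026277), the shugoshin that protects centromeric cohesion, was the least abundant of the 9 genes in the knockouts. It had 5.21 and 5.78 TPM in Prdm9 KO, 5.58 and 4.31 TPM in Hop2 KO and 13.9 TPM in wild type. The KO groups overlapped below wild type, which held 2.53 times the Prdm9 KO mean (5.50 ± 0.408 TPM) and 2.81 times the Hop2 KO mean (4.95 ± 0.895 TPM, SD, n = 2 each). The log2 change was -1.20 (SE 0.20) in Prdm9 KO (limma adjusted p = 0.0104) and -1.34 in Hop2 KO (limma adjusted p = 0.00771). Without Prdm9 KO replicate 1 the Prdm9 KO value was -1.14 and missed the threshold (limma adjusted p = 0.0593). Both calls were also lost with each column brought to 1000000, at -0.36 in Prdm9 KO and -0.60 in Hop2 KO (limma adjusted p = 0.259 and 0.0973).

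**Figure D2:**
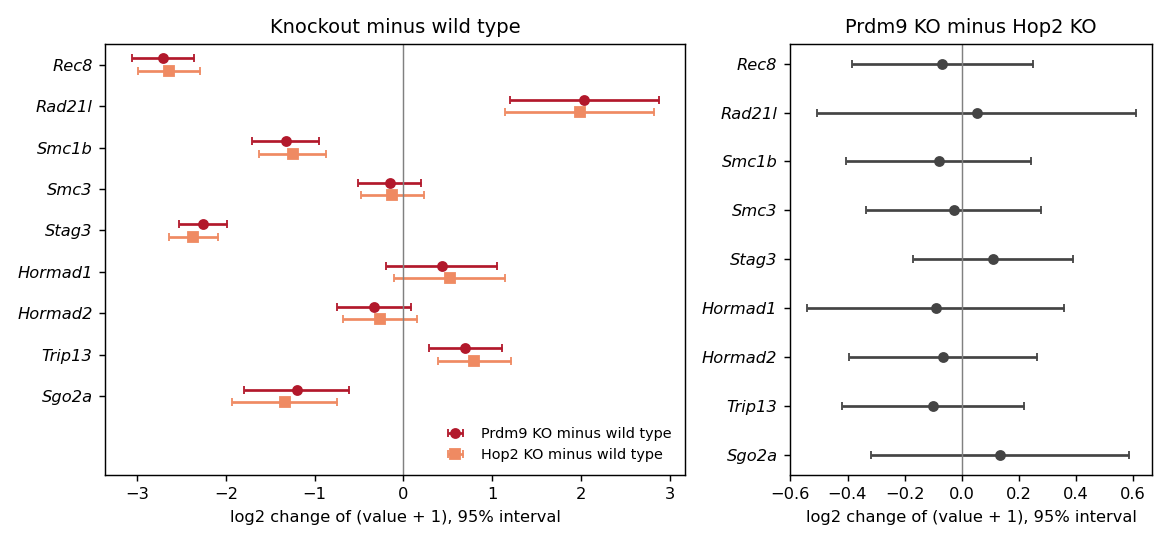
Log2 changes of the 9 genes on the log2(TPM + 1) scale with 95% intervals from limma, for Prdm9 KO and Hop2 KO against wild type and for Prdm9 KO against Hop2 KO. Against wild type the genes run from -2.71 for Rec8 to 2.04 for Rad21l in Prdm9 KO, while between the knockouts every interval includes 0.

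The order of the levels therefore differed between genotypes. In the means of both knockouts it ran Stag3, Hormad1, Smc1b, Smc3, Rec8, Trip13, Hormad2, Rad21l and Sgo2a, from high to low. In wild type it ran Stag3, Rec8, Smc1b, Hormad1, Smc3, Hormad2, Sgo2a, Trip13 and Rad21l. Within both knockouts the libraries of Smc1b overlapped those of Smc3, and those of Hormad2 overlapped Rad21l, so these neighbours did not differ beyond their spread. Rec8 and Trip13 overlapped in Hop2 KO and not in Prdm9 KO. The other neighbours did not overlap within either knockout.

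Prdm9 KO and Hop2 KO could be compared with replicates on both sides. None of the 9 genes passed the test (limma, 0 of 9), and none reached an unadjusted p under 0.05. In this fit 0.0139% of all 14358 genes tested passed it (2 genes, both higher in Prdm9 KO), and 445 genes had an unadjusted p under 0.05. The log2 differences of the 9 genes lay between -0.10 for Trip13 (95% interval -0.42 to 0.22) and 0.13 for Sgo2a (-0.32 to 0.59). The limits of the intervals show what such libraries could miss: the widest was that of Rad21l, from -0.51 to 0.61 around 0.05, and the narrowest that of Stag3, from -0.17 to 0.39 around 0.11. Stag3 was the only one of the 9 whose libraries did not overlap between the knockouts, higher in Prdm9 KO, and 32.9% of all genes tested did not overlap either. The intervals of Rec8 (-0.38 to 0.25), Smc1b (-0.40 to 0.24), Smc3 (-0.33 to 0.28), Hormad1 (-0.54 to 0.36) and Hormad2 (-0.40 to 0.26) likewise lay on both sides of 0. In the authors' deposited table of gene tests, whose compared groups are not named, all 9 genes were listed, with p between 0.337 and 1 and q of 1 for each.

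The shares that the meiotic subunits take of their paralogous pairs do not depend on column scaling. Rec8 and Rad21l together made up 30.1% and 28.2% of all kleisin mRNA, counted with Rad21, in Prdm9 KO, 28.9% and 29.0% in Hop2 KO, against 70.6% in wild type. Rec8 alone held 16.5% and 16.7% in the Prdm9 KO libraries, 16.2% and 18.1% in Hop2 KO, against 69.2% in wild type. Rad21l held 13.5% and 11.5% in the Prdm9 KO libraries, 12.7% and 10.9% in Hop2 KO, against 1.37% in wild type. So the meiotic kleisin mRNA of wild-type testis was nearly all Rec8, whereas Rad21l was 45.05% and 40.9% of it in Prdm9 KO, 44.0% and 37.6% in Hop2 KO, against 1.94% in wild type.

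Smc1b made up 67.2% and 61.8% of the summed Smc1a and Smc1b mRNA in Prdm9 KO, 66.9% and 61.2% in Hop2 KO, against 93.5% in wild type. Stag3 made up 65.3% and 65.1% of the mRNA of the Stag genes in Prdm9 KO, 61.3% and 70.5% in Hop2 KO, against 92.4% in wild type. In each of the subunit families the 4 KO libraries lay together below wild type. The mitotic paralogs in these sums are also expressed by the Sertoli, Leydig and other somatic cells whose markers were higher in the knockouts, and the part of those cells in the shares was not tested.

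**Figure D3:**
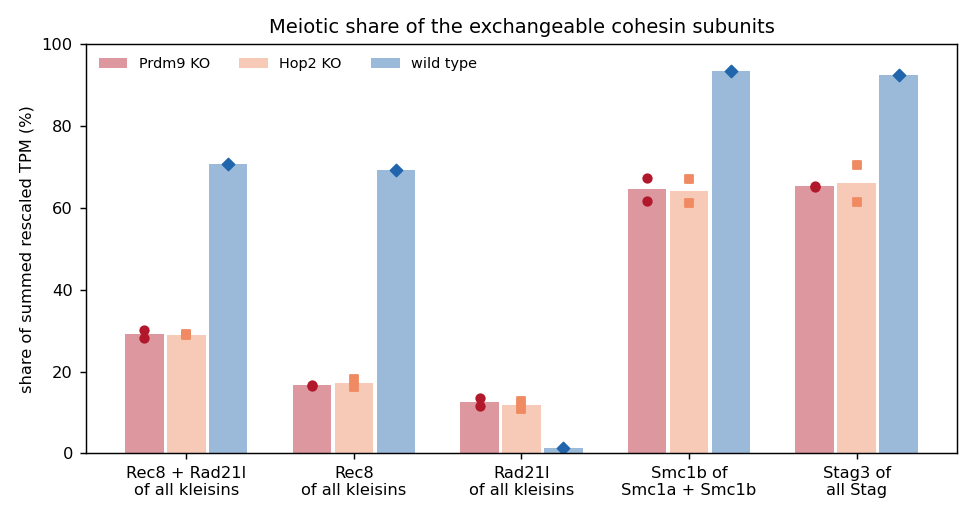
Share in percent of the summed TPM of each subunit family held by its meiotic members in Prdm9 KO, Hop2 KO and wild-type testis, with 1 point per library and bars at the mean. Rec8 and Rad21l together hold 28.2% to 30.1% of kleisin mRNA in the KO libraries and 70.6% in wild type, and Rad21l is the one shown whose share is higher in the KO libraries.

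Of the mitotic counterparts, Smc1a and Rad21 rose in both knockouts. Smc1a had 13.4 and 15.2 TPM in Prdm9 KO, 13.0 and 18.1 TPM in Hop2 KO and 4.61 TPM in wild type, and rose by 1.44 and 1.55 on the log2 scale in Prdm9 KO and Hop2 KO (limma adjusted p = 0.0116 and 0.00954). Rad21 had 69.5 and 67.8 TPM in Prdm9 KO, 78.0 and 63.1 TPM in Hop2 KO and 47.1 TPM in wild type, with changes of 0.54 and 0.57 (limma adjusted p = 0.0469 and 0.0404). Stag2 had 15.8 and 17.6 TPM in Prdm9 KO, 17.6 and 14.96 TPM in Hop2 KO and 10.8 TPM in wild type. It passed the test in Prdm9 KO (0.59, limma adjusted p = 0.0435) and not in Hop2 KO (0.55, limma adjusted p = 0.0517), and the changes of Stag1, 0.33 and 0.11, did not pass (limma adjusted p = 0.389 and 0.773). Stag1 had 37.8 and 38.3 TPM in Prdm9 KO, 40.9 and 25.6 TPM in Hop2 KO and 30.0 TPM in wild type, so 1 Hop2 KO library lay below wild type. Thus 3 of these 4 genes rose in Prdm9 KO and 2 in Hop2 KO, where 34.6% and 35.0% of all genes rose, with a median change of 0.56 in each, against -0.08 and -0.06 over all genes. The count of 3 became 0 without either Prdm9 KO library and 2 without either Hop2 KO library, and the count of 2 in Hop2 KO became 1 without Hop2 KO replicate 1 or either Prdm9 KO library.

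The machinery that loads, releases and cleaves cohesin moved both ways. Of its 11 genes 6 fell and 2 rose in Prdm9 KO (median -0.32), where 39.4% of all genes fell and 34.6% rose, and 6 fell and 2 rose in Hop2 KO (median -0.60), where 39.5% fell and 35.0% rose. Nipbl, the cohesin loader, had 13.6 and 17.6 TPM in Prdm9 KO, 13.2 and 14.0 TPM in Hop2 KO and 84.5 TPM in wild type, with log2 changes of -2.37 and -2.55 (limma adjusted p = 0.00162 and 0.00133). Its partner Mau2 fell as well (-0.32 and -0.60, limma adjusted p = 0.0431 and 0.00833). Espl1, which encodes the kleisin-cutting protease separase, fell (-1.83 and -1.99, limma adjusted p = 0.00531 and 0.00415), Cdca5, which encodes sororin, fell (-1.40 and -1.38, limma adjusted p = 0.00331 and 0.00333), and the releasing factor Wapl fell (-1.36 and -1.52, limma adjusted p = 0.0402 and 0.0298), each pair in Prdm9 KO and Hop2 KO. The 2 that rose were Esco2 (1.10 in Prdm9 KO and 0.95 in Hop2 KO, limma adjusted p = 0.0148 and 0.0215) and Hdac8 (0.90 and 1.09, limma adjusted p = 0.0221 and 0.0133). The counts of falls and rises moved with scaling and with single libraries. Across all alternatives 2 to 6 of the 11 fell in Prdm9 KO and 0 to 6 rose. In Hop2 KO 3 to 6 fell and 1 to 4 rose.

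A broad list held 12 genes of other axis proteins, HORMA-domain partners and related factors, not all of them axis proteins. Of these 5 fell and 2 rose in Prdm9 KO (median -0.64), and 6 fell and 1 rose in Hop2 KO (median -0.50). Over all genes tested 39.4% fell and 34.6% rose in Prdm9 KO, and 39.5% fell and 35.0% rose in Hop2 KO. Sycp2, which encodes a core protein of the axis and was picked after its values were seen, passed the test in Hop2 KO (-1.43, limma adjusted p = 0.0432) and not in Prdm9 KO (-1.28, limma adjusted p = 0.0581). Sycp3 of the same list went the other way without passing, at 0.51 in Prdm9 KO and 0.65 in Hop2 KO (limma adjusted p = 0.169 and 0.103). The falls of greatest size were of Ccdc155, which links telomeres to the cytoskeleton (-3.46 in Prdm9 KO and -3.36 in Hop2 KO, limma adjusted p = 0.000674 and 0.000703), of Mad2l2, a HORMA protein of DNA repair (-3.44 and -3.48, limma adjusted p = 0.0016 and 0.00151), and of 4930432K21Rik (-2.69 and -2.75, limma adjusted p = 0.000982 and 0.000901). Ankrd31, a partner of the break-forming protein REC114, had 6.11 and 8.04 TPM in Prdm9 KO, 5.38 and 5.18 TPM in Hop2 KO and 18.5 TPM in wild type (-1.28 and -1.64, limma adjusted p = 0.00949 and 0.0049). Across alternatives 3 to 6 of the 12 fell and 0 to 5 rose in Prdm9 KO, and 4 to 6 fell and 1 to 5 rose in Hop2 KO.

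Of 14 genes of the shugoshin and cohesin-protection list 13 were tested, and 5 rose and 5 fell in each knockout (median -0.26 in Prdm9 KO and -0.21 in Hop2 KO). Over all genes tested 34.6% rose and 39.4% fell in Prdm9 KO, and 35.0% and 39.5% in Hop2 KO. The counts are near those shares and show nothing particular to the list. Sgo1, the shugoshin of mitosis, went against Sgo2a, with a rise of 0.78 in Prdm9 KO and 0.62 in Hop2 KO (limma adjusted p = 0.00714 and 0.0127); it was picked for this contrast after its values were seen. The falls included the kinase gene Plk1 (-2.97 and -3.02, limma adjusted p = 0.00145 and 0.00135) and Meikin, whose product protects cohesion at meiotic kinetochores (-2.43 in both, limma adjusted p = 0.000942 and 0.000911). Regulatory subunits of the phosphatase PP2A moved both ways: Ppp2r5c fell (-2.86 and -2.84, limma adjusted p = 0.000159 and 0.000163), and Ppp2r5b, whose symbol stands on a pair of rows with identical values, rose by 2.08 and 1.93 (limma adjusted p = 0.00345 and 0.00409).

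Early prophase genes, which are active when cohesin and axis proteins load, also moved both ways. Of 8 such genes 3 rose and 3 fell in each knockout. Of all genes tested 34.6% rose and 39.4% fell in Prdm9 KO, and 35.0% rose and 39.5% fell in Hop2 KO. Beside such shares the counts show nothing particular to the list. Dmc1, the meiotic strand-exchange protein, rose by 1.71 and 1.81 (limma adjusted p = 0.00077 and 0.00066) and Tex11, which acts in crossover formation, by 1.84 and 1.93 (limma adjusted p = 0.00272 and 0.00236). Syce1, a central element protein of the synaptonemal complex, fell (-3.60 in both, limma adjusted p = 0.00021 and 0.000214) and Spo11, the break-forming enzyme, fell too (-2.59 and -2.41, limma adjusted p = 0.000806 and 0.000932). No gene of these lists passed the test between Prdm9 KO and Hop2 KO (limma, 0 of each list).

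The rescaling of the columns sets the baseline of the comparisons with wild type. Column totals were 873316 and 825459 in the Prdm9 KO libraries, 896480 and 953598 in Hop2 KO, against 1622660 in wild type. The median change of all genes in Prdm9 KO was -0.08 with the columns as deposited, 0.18 with median-ratio scaling, 0.58 after quantile normalization and 0.77 with each column brought to 1000000, and in Hop2 KO it was -0.06, 0.19, 0.59 and 0.68. The share of calls that were higher, 46.8% in Prdm9 KO and 47.0% in Hop2 KO as deposited, became 61.8% and 61.5% after quantile normalization and 66.0% and 64.0% at 1000000. Relative to that median each of the 9 genes had the same direction under all 4 scalings in both knockouts. Median-ratio scaling and totals of 1000000 divide each column by a constant. Their agreement with the deposited columns was nearly fixed in advance, since such a shift largely goes when subtracting the median. In Prdm9 KO, Rec8 was -2.63 relative to it as deposited, Stag3 -2.18, Smc1b -1.25, Sgo2a -1.12, Hormad2 -0.25, Smc3 -0.08, Hormad1 0.51, Trip13 0.78 and Rad21l 2.11. Stag3 moved most, to -1.65 after quantile normalization. Without subtracting the median, Smc3 turned positive under the 3 other scalings and Hormad2 under quantile normalization and at 1000000, in both knockouts. At 1000000 the Prdm9 KO change of Smc1b was -0.41 and that of Rec8 -1.80, Trip13 stood at 1.53 and Hormad1 at 1.34, and after quantile normalization Stag3 stood at -1.06.

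**Figure D4:**
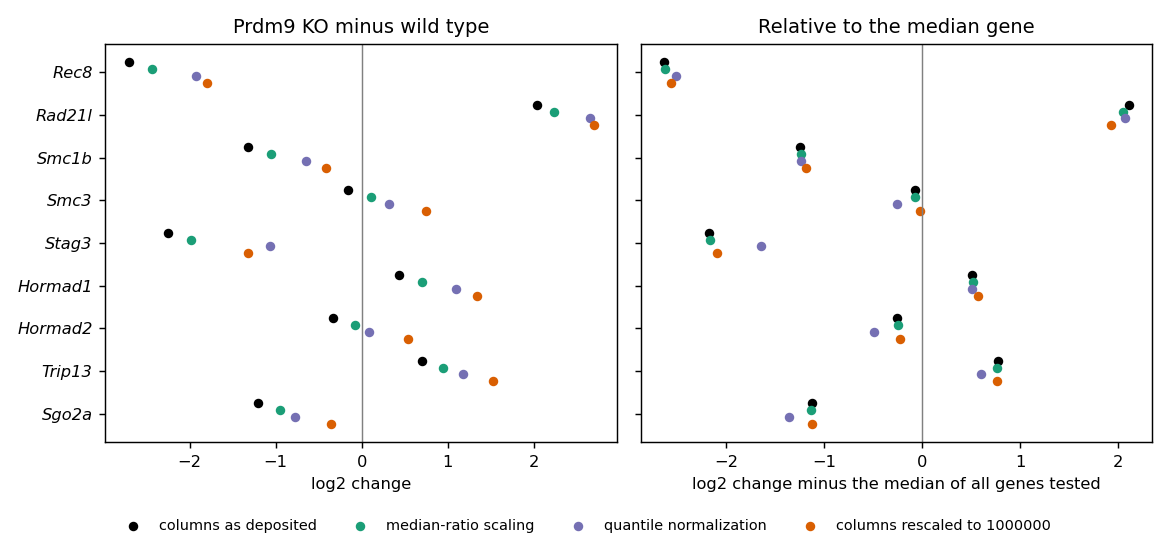
Log2 change of the 9 genes in Prdm9 KO against wild type under 4 scalings of the columns (1 point per scaling), on the left as computed and on the right after subtracting the median of all genes tested under that scaling. On the left the values of a gene are spread along the axis and Smc3 lies on both sides of 0, while on the right every gene keeps its side, with Rec8 the lowest and Rad21l the highest under each scaling. For the scalings that divide a column by a constant, the agreement on the right was nearly fixed in advance.

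Single transcripts of the 9 genes were listed as well. All Rad21l and Smc1b mRNA came from 1 transcript each, and the leading transcript held 98.8% to 99.6% of Smc3 in the KO libraries against 97.7% in wild type and at least 99.6% of Sgo2a in each KO library against 99.8%. The leading Rec8 transcript held 78.1% to 99.2% in the KO libraries and 91.9% in wild type, with Prdm9 KO replicate 2 giving 21.1% to a second transcript. Hormad1 was the one gene with more than 1 sizeable transcript in which wild type lay outside the KO range for both: the leading transcript held 69.8% to 74.2% in the KO libraries against 58.6% in wild type, and the second 24.7% to 29.5% against 37.4%. Stag3, Hormad2 and Trip13 were each split mainly between 2 transcripts. The leading one held 41.9% to 52.0% of Stag3 in the KO libraries against 47.2% in wild type, 28.4% to 46.9% of Hormad2 against 44.1%, and 46.5% to 58.8% of Trip13 against 47.7%, with wild type inside the KO range for each. The second held 35.6% to 43.7% of Stag3 in the KO libraries against 45.9% in wild type and 39.9% to 49.4% of Trip13 against 52.3%, where wild type lay above that range, and 33.2% to 42.1% of Hormad2 against 35.1%, where it lay inside. Transcripts of a gene share reads, so such shares carry the error of the estimate.

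For each gene the 2 genes of nearest pattern over the 5 libraries were sought among 11482 others. Likeness was the Euclidean distance between log2(TPM + 1) profiles centred on their own means. The nearest were Pex3 and Tiprl to Rec8, Serinc1 and Gpd1l to Rad21l, Pmm2 and Ercc1 to Smc1b, Ap4m1 and Rapgef1 to Stag3, and Dnttip2 and Eed to Smc3. Rlim and Chordc1 were nearest to Hormad1, Fam20b and Cdk19 to Hormad2, Vcp and Atp6v1b2 to Trip13, and Pik3r3 and Rbm48 to Sgo2a. Distances to the nearest gene ran from 0.0338 for Smc3 to 0.123 for Hormad1.

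Break fragments were then examined at the starts of the 9 genes in the Prdm9 (K/K) library. In mice without PRDM9 function breaks are known to form at promoters and other sites of trimethylated histone H3 lysine 4, and the genes' own promoters were therefore looked at. All 9 genes had a peak within 1000 bases of an annotated start, as did 62.7% of 11449 genes with a mean of at least 1 TPM and 68.4% of those with a mean of at least 5 TPM. With peaks at or above the median of 23 distinct fragments the counts were 7 of the 9 genes and 43.2% of all. The library held 9397213 fragment lines at 2652951 distinct positions (28.2%), each counted once, and 26.3% of the distinct positions lay in the 17731 peaks.

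The peaks at the 9 genes differed widely in strength. Smc3 had 204 fragments, rank 241 of 17731, Rad21l 118 (rank 1086), Stag3 108 (rank 1330) and Hormad2 75 (rank 2471). Sgo2a had 48, Trip13 29, Hormad1 26, Rec8 17 and Smc1b 9, a count below that of most peaks (rank 14894). The gene start lay inside the peak for 8 of the 9. For Rad21l the listed start, chr2:151668533, lay 463 bases from the peak chr2:151668996-151671483, which does hold the end of the annotated gene span that is 5′ on its strand. Sgo2a has a pair of listed starts, and the peak covers the second. The listed start of Stag3, chr5:138280509, lies inside its annotated span, which begins at chr5:138272514, so its peak may not mark the 5′ end.

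Around the 8 starts inside a peak the fragments within 2000 bases were split by strand. Fragments on the gene's own strand outnumbered those on the other strand upstream of the start in all 8, from 7 against 4 at Rec8 to 47 against 9 at Smc3. Downstream the other strand led in all 8, from 7 against 5 at Smc1b to 116 against 29 at Smc3. Counts at Rec8, Smc1b and Hormad1 are small. Only counting error stands behind these values, from 1 library with no control, and no test was made. The starts were taken because they lie in a peak, and peaks elsewhere were not split by strand. The order of the strands therefore shows nothing particular to these genes.

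**Figure D5:**
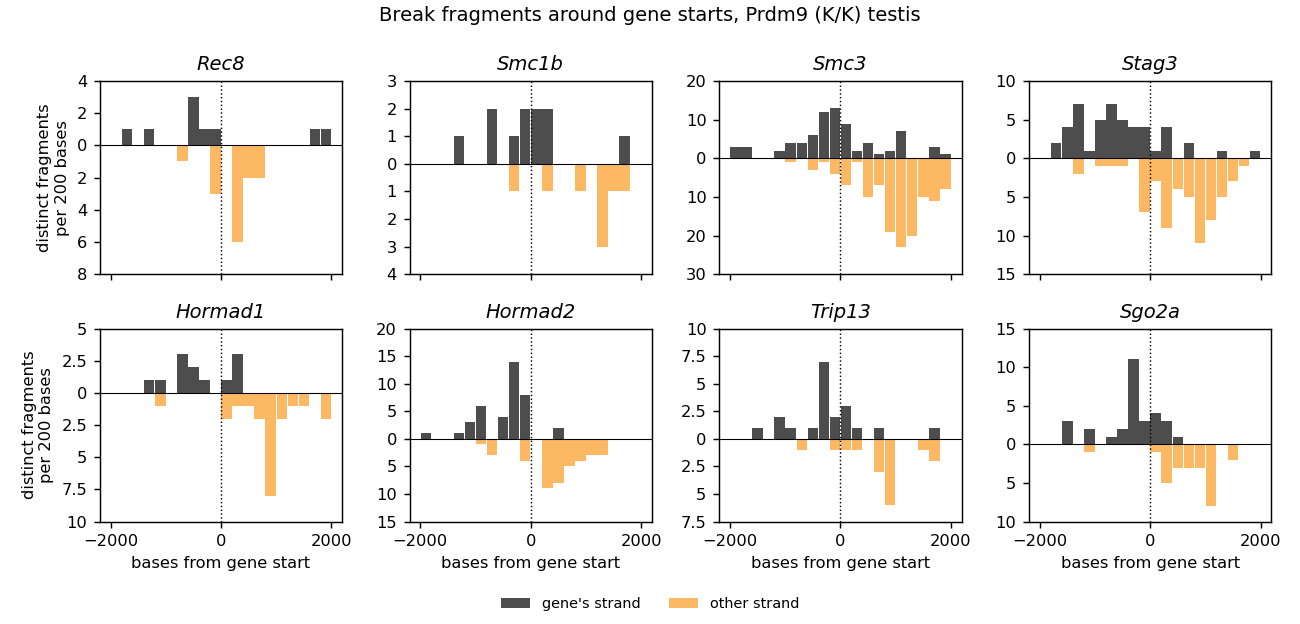
Distinct break fragments in bins of 200 bases by distance in bases from the gene start, in Prdm9 (K/K) testis, for the 8 genes whose start lies in a peak, with fragments on the gene strand above 0 and those on the other strand below. Each panel has its own count axis. At Smc3 47 gene-strand fragments stand against 9 of the other strand upstream, and downstream the other strand leads in all 8 panels. Peaks elsewhere were not split by strand.

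The promoters of the 9 genes were all found in RefSeq, build GRCm38.p6, and the 250 bases before the start are shown for 4 genes, since their starts lie in a break peak and their levels represent the falling members and, in Hormad1, one that did not pass the test. Capitals mark matches, on either strand, to 6 motifs: the E-box CACGTG, the E2F motif GCGGGAA, the CRE TGACGTCA, the STRA8 motif CNCCTCAG, the NRF1 motif (GCGCA and GCGC with any base between) and the CCAAT box. The motifs were chosen with the Rec8 and Hormad1 sequences in view, and no matches overlapped.
Rec8, chr14:55617916-55618165, plus strand: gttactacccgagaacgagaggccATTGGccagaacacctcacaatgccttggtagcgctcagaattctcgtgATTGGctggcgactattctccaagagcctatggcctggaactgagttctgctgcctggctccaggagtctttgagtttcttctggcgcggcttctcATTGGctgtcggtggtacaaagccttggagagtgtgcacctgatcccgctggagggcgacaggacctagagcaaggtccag
Smc1b, chr15:85131958-85132207, minus strand: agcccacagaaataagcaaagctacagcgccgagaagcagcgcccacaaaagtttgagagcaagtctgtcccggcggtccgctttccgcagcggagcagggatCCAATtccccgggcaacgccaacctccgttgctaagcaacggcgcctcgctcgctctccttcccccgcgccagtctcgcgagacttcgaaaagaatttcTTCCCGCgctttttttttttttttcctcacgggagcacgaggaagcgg
Stag3, chr5:138280259-138280508, plus strand: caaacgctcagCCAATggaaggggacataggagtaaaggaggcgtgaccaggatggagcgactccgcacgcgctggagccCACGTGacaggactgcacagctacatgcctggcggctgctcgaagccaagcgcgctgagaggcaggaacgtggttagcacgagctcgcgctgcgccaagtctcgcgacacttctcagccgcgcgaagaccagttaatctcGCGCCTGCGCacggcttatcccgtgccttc
Hormad1, chr3:95559427-95559676, plus strand: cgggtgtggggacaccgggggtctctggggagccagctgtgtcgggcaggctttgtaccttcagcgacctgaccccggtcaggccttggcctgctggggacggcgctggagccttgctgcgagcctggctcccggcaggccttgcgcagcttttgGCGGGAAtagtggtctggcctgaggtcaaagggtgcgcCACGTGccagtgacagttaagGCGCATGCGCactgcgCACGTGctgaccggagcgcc

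The CCAAT box was matched in 4 of the 9 promoters, those of Rec8, Smc1b, Stag3 and Sgo2a, against 37.5% of 27025 genes. The Sgo2a match lies before the first of its listed starts, not the one inside the break peak. The stretches searched for Rad21l, chr2:151668534-151668783, and Stag3, chr5:138280259-138280508, lie inside the annotated gene spans, so they may not be the promoters. That of Rec8 lies partly inside its span, which begins at chr14:55618002. The E-box was found at Stag3 and Hormad1 (6.86% of genes), the E2F motif at Smc1b and Hormad1 (4.38%), the NRF1 motif at Stag3 and Hormad1 (4.23%) and the STRA8 motif at Hormad2 (7.39%). No promoter of the 9 held the CRE, which 1.77% of all genes do. A match says only that the letters are present, and with 9 genes the counts give no comparison with the genome.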

How the data were processed

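Testis mRNA was compared in 5 of the 28 samples and break fragments examined in 1. The microRNA and histone libraries were not analysed here. The mRNA values are a signal that the authors deposited as TPM, per the file headers, and their columns do not sum to 1000000. The submitters' processing notes name CASAVA, kallisto, sleuth and the builds GRCm38 and mm10, without versions in the sources used here. A gene test was deposited by the authors as p-values and q-values. Columns of per-sample values not used numbered 0.

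The test was that of limma 3.58.1 (R 4.3.3) on log2(TPM + 1) with its intensity trend, over genes with a mean of at least 1 in the fitted libraries, with Benjamini-Hochberg adjustment over all of them and a threshold of 0.05. The knockouts were compared in a fit of their 4 libraries, and both knockouts with wild type in a fit of all 5. The procedure was tested on simulated data. Gene spans and promoters come from RefSeq, GRCm38.p6. Break fragments at the same position and strand were counted once, and since the peaks carry no score, stronger peaks were those with at least the median fragment count.

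The 9 genes and all gene lists were chosen with earlier results of these data known. All 9 are named throughout. From each list up to 4 genes with the largest absolute change in Prdm9 KO against wild type are named, and for each of the 9 the 2 genes nearest in pattern with a mean of at least 5 TPM, without predicted genes and pseudogenes. Mau2, Esco2, Hdac8, Sycp2, Sycp3, Sgo1, Hspa2, Ybx2 and Mybl1 were named after their values were seen. Alternatives were other pseudocounts, filters, scalings, no trend, other sets of libraries, a replicate block, other peak distances and transcript sums.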

Additional observations from a re-analysis of the deposited data

How the results depend on the processing

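The 27 changes of the 9 genes were recomputed under 360 alternatives: 348 kept their side of the threshold, 5 lost the call, 5 gained it and 2 reversed. Those that did not keep it were all against wild type, as no gene of the 9 passed between the knockouts in any setting. Of the 348, 21 changed sign while past the threshold in neither setting, 13 of them between the knockouts and 8 against wild type (Smc3 and Hormad2 under other scalings). With columns brought to 1000000, Smc3 reversed to 0.74 in Prdm9 KO (limma adjusted p = 0.0139) and 0.65 in Hop2 KO (limma adjusted p = 0.0205) against wild type, 4 of the 9 genes were higher in each in place of 2, and Sgo2a lost its call (-0.36 and -0.60, limma adjusted p = 0.259 and 0.0973). The median of all genes moved by the same scaling. Hormad1 passed there (1.34 and 1.31, limma adjusted p = 0.0116 and 0.0125), after quantile normalization (1.10 and 1.13, limma adjusted p = 0.0106 and 0.00951) and in Hop2 KO without Hop2 KO replicate 2 (0.73, limma adjusted p = 0.0302). Leaving out each KO library in turn gave 1 to 2 higher genes in Prdm9 KO and 2 to 3 in Hop2 KO.

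Between the knockouts 0 of the 9 genes passed under every alternative run. Over all genes the 2 calls became 1 with a pseudocount of 5, 0 with no filter, 0 in a fit of all 5 libraries and 3 to 11 without single libraries. With the replicate number as a block they became 8, with 1536 genes at an unadjusted p under 0.05. Differences between same-numbered libraries correlated at 0.413 over 14358 genes, but there are only 2 pairs and the labels do not tie the numbers to shared animals, so the pairing was not used. The block could not be fitted against wild type, and the wild-type library could not be left out. The Stag3 share in Prdm9 KO was 66.2% over transcripts of at least 1 TPM, in place of 65.2%. Counts of the gene lists were kept within 1.5 times in 832 of 880 alternatives and moved in 48. All moves were against wild type, as every list count between the knockouts was 0 in every setting. The cause of these moves was not tested. Depth is unknown, so no limit of detection can be given.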
